A study of Mus musculus with 8 samples.

Results

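The genes described here are the amino acid and neurotransmitter transporters of 6 solute carrier families, taken as every gene of the table whose symbol is Slc1a, Slc6a, Slc7a, Slc38a, Slc36a or Slc43a followed by a digit. The rule found 61 of 19884 genes. Of these, 7 belong to Slc1a, 20 to Slc6a, 16 to Slc7a, 11 to Slc38a, 4 to Slc36a and 3 to Slc43a. Slc7a6os fits the rule by its symbol only: it lies beside Slc7a6 on the opposite strand and is not itself a transporter, so 60 of the 61 are carriers. RNA was measured in whole uterus and in whole maternal brain of wild-type C57BL/6J females aged 6 to 10 weeks, taken on gestation day 4 after mating with fertile males. No agent was given. The 4 uterus libraries and 4 brain libraries came from 1 animal each, and the labels do not say whether the 2 organs came from the same mice. Pregnancy had been checked by blastocysts flushed from the uterus. Both organs were taken whole, so neither brain regions nor the layers of the uterus are separated.

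Solute carriers of these families move amino acids and their derivatives across the plasma membrane or the lysosomal membrane. Slc1a and Slc6a proteins are driven by sodium and clear transmitters such as glutamate, GABA, glycine, noradrenaline, dopamine and serotonin from the space around neurons, while related members carry nutrients in epithelia. Several Slc7a proteins are light chains that reach the membrane only when bound to the heavy chain Slc3a2, and Slc38a, Slc36a and Slc43a proteins supply glutamine, small neutral amino acids and large neutral amino acids to cells or let them out of lysosomes.

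The libraries held 35394603 to 40254254 counts in uterus and 40115616 to 47790178 counts in brain. Levels are CPM, counts scaled to the library total, on TMM-scaled library sizes, a count of 0 allows up to 0.0699 to 0.0761 CPM in a uterus library and 0.0692 to 0.0810 CPM in a brain library, and a positive log2 fold change means a higher level in uterus than in brain. The labelled organs matched their markers. Summed levels of 4 smooth muscle markers were 2696 to 3499 CPM in uterus and 19.1 to 23.9 CPM in brain, those of 4 uterine epithelium markers were 530.4 to 642 and 5.56 to 8.87 CPM, and those of 4 neuron markers were 3.10 to 6.27 and 4473 to 4654 CPM. Of 5 markers of trophoblast and embryo, Pou5f1 and Cdx2 had 0 counts in every uterus library, Nanog had 9 counts over the 4, and Eomes and Elf5 were detected in both organs, at 6.89 and 0.974 CPM in uterus and 13.4 and 0.498 CPM in brain. Values of single libraries are listed below in the order of libraries 1 to 4, and means are given ± SD over n = 4 libraries per organ.

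The 5 largest changes toward uterus were, in order, those of Slc6a14, a carrier of neutral and cationic amino acids at low level, the glutamine carrier Slc1a5, the large neutral amino acid carrier Slc43a1, the purine base carrier Slc43a3 and the noradrenaline carrier Slc6a2. Carriers of glutamate, GABA, glycine and proline were among the largest changes toward brain. Of the 61 genes, 51 had enough counts to be tested, 14 were higher in uterus, 32 were higher in brain and 5 did not pass (edgeR quasi-likelihood test, adjusted p under 0.05). Over all 16074 tested genes the share called was 87.0%, with 43.5% higher in uterus and 43.6% higher in brain. The members' 90.2% called is near that background, whereas their direction was less even, with 27.5% higher in uterus and 62.7% higher in brain. Past a 2-fold change, 8 members were higher in uterus and 28 in brain, against 23.5% and 25.8% of all tested genes. The libraries of the organs did not overlap for 46 of the 51 members, beside 84.1% of all tested genes. The median log2 fold change was -1.51 over the tested members and 0.01 over all tested genes.

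**Figure D1:**
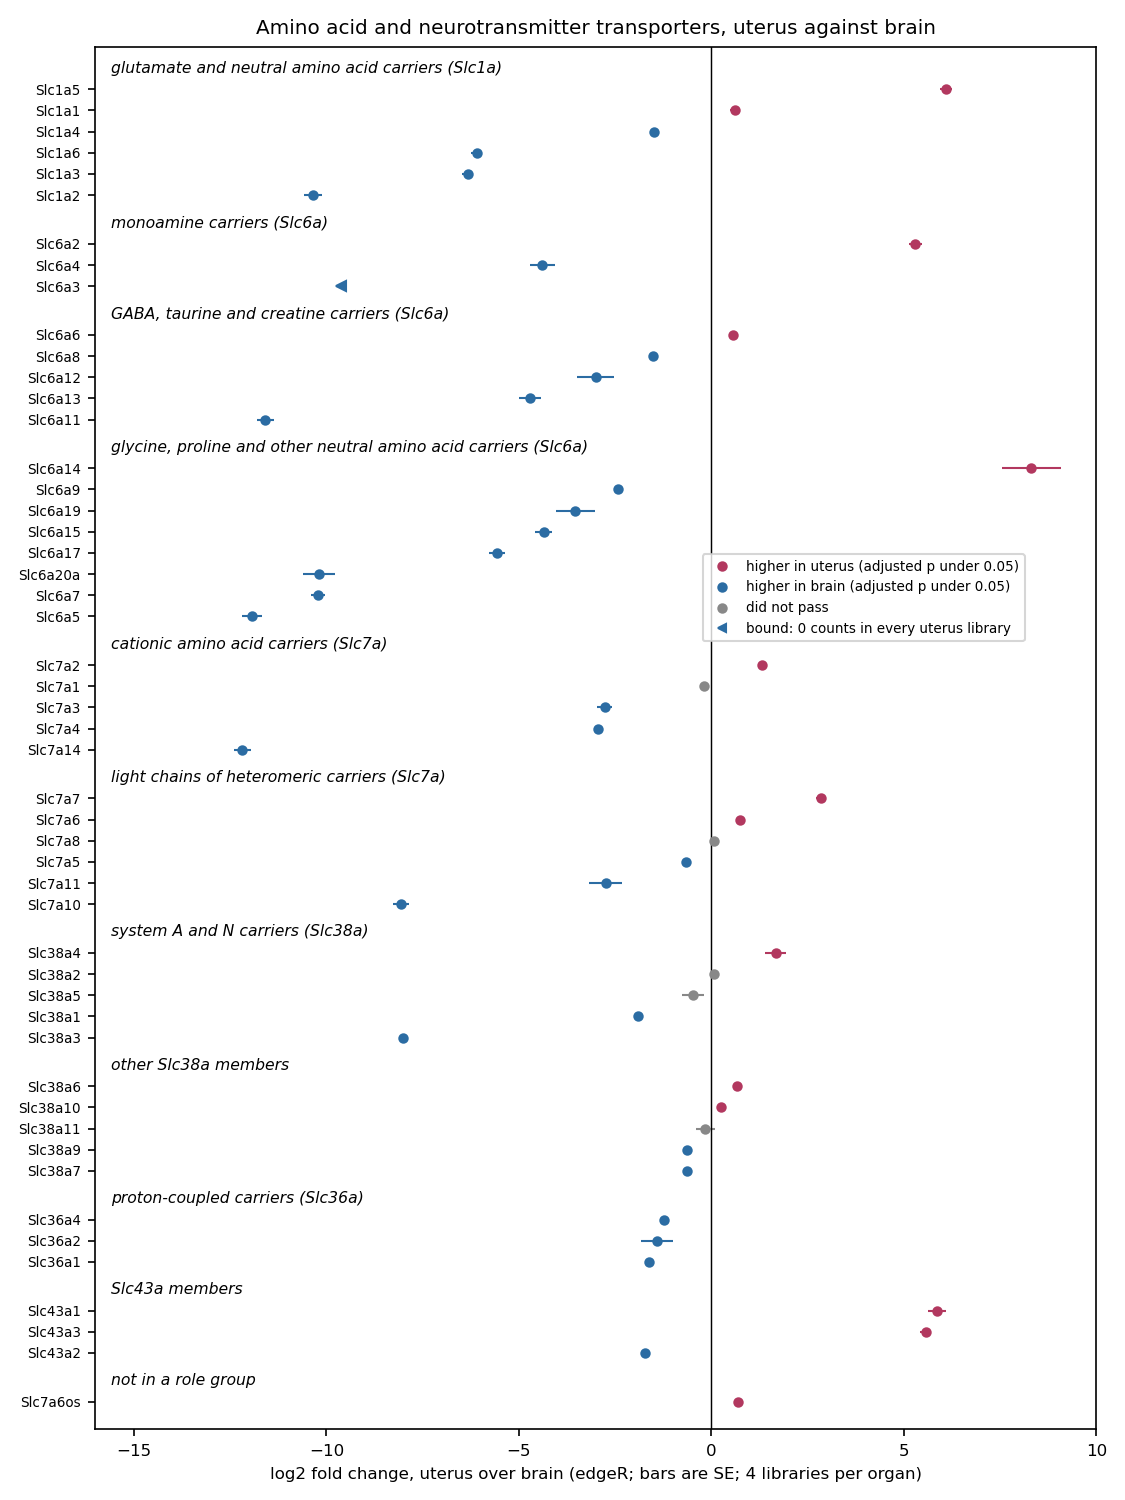
Log2 fold change, uterus over brain, of tested members by role (1 of the 51 is not drawn), with SE bars from edgeR (4 libraries per organ); the triangle marks Slc6a3, which had 0 counts in uterus and is drawn at its bound. Bars of genes with few counts can be too short. Most points lie left of 0, on the side of higher levels in brain, and 14 members are higher in uterus.

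Summed over all 61 members, levels were 2172, 2201, 2188 and 2193 CPM in uterus, against 7546, 7397, 7505 and 7664 CPM in brain. The CPM sum was therefore nearly the same in each uterus, although single carriers differed several-fold between animals, as described for Slc6a14 and Slc7a11. Per length, in TPM, where counts are divided by exon-union length and scaled to a common total, the 61 genes summed to 1173, 1381, 1312 and 1178 TPM in uterus, against 3342, 3030, 3204 and 3372 TPM in brain, which is less even between uteri than the CPM sum. The 5 highest members made up 50.9% of the mean TPM sum in uterus and 52.7% in brain, so the transporter pool was about equally concentrated in both organs but on different genes. With a limit of 1 CPM that every library of the organ had to reach, 34 members were detected in both organs, 2 in uterus only (Slc43a1 and Slc6a14), 13 in brain only and 12 in neither.

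The order of levels per length in uterus began with Slc1a5 at 269.9 ± 61.4 TPM, followed by Slc6a6 at 112 ± 9.08 TPM and Slc38a2 at 111 ± 7.15 TPM, whose values overlapped. Slc6a2 at 85.2 ± 17.3 TPM and Slc1a1 at 63.3 ± 8.90 TPM came next and also overlapped. With the longest transcript as the length, Slc1a5 stayed first in uterus, Slc38a2 came before Slc6a6, and Slc1a1 (106 TPM) and Slc43a3 (71.8 TPM) came before Slc6a2 (66.5 TPM). In brain the order began with Slc1a2 at 665 ± 63.8 TPM and Slc1a3 at 325 ± 24.3 TPM. Slc6a11 at 245 ± 11.9 TPM and Slc6a17 at 222 ± 9.68 TPM were among the 5 highest there. By exon-union length, Slc38a2 was the only gene among the 6 highest of both organs.

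Among the Slc1a family, the member with the most RNA per length in each class of substrate differed between the organs. The family holds 5 glutamate carriers and 2 exchangers of neutral amino acids. Of its 6 tested members, 2 were higher in uterus and 4 in brain. Slc1a5, which takes up glutamine in exchange for other neutral amino acids, is at chr7:16781340-16798274 on GRCm38, and had 273, 375, 334 and 261 CPM in uterus, against 4.64, 5.17, 4.46 and 3.90 CPM in brain. All uterus libraries were far above all brain libraries, with a log2 fold change of 6.09 ± 0.15 (SE, adjusted p = 1.09e-10). Its relative Slc1a4, which prefers serine and alanine, went the other way: it had 25.6, 27.4, 25.1 and 29.1 CPM in uterus, against 77.96, 67.9, 87.6 and 69.7 CPM in brain, without overlap, at -1.50 ± 0.09 (SE, adjusted p = 7.63e-08). Together the pair summed to 294 ± 62.5 TPM in uterus and 73.2 ± 8.96 TPM in brain. Slc1a5 held 91.4 ± 1.59% of that sum in uterus and 5.39 ± 0.912% in brain.

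Slc1a2, the main glutamate carrier of astrocytes, had 1.64, 1.93, 1.24 and 2.61 CPM in uterus, against 2566, 2314, 2327 and 2514 CPM in brain. Its log2 fold change was -10.35 ± 0.23 (SE, adjusted p = 5.56e-11). Slc1a3, the other glial glutamate carrier, had 11.6, 10.5, 7.94 and 8.34 CPM in uterus, against 780.0, 767, 734 and 810.5 CPM in brain, at -6.33 ± 0.14 (SE, adjusted p = 4.17e-11). Both genes were thus detected in every uterus library, at levels far under those of every brain library. Slc1a6, known from Purkinje cells of the cerebellum, averaged 0.603 ± 0.153 CPM in uterus and 41.4 ± 2.24 CPM in brain, at -6.10 ± 0.14. The astrocyte markers moved with this group: Gfap averaged 2.27 CPM in uterus and 208 CPM in brain, Aqp4 0.0467 and 266 CPM, and Aldh1l1 8.87 and 64.5 CPM, whereas Gja1, which smooth muscle and stroma also express, averaged 314 and 250.1 CPM. In these bulk samples, fewer cells of a type and less RNA per cell cannot be told apart.

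Slc1a1, the glutamate and cysteine carrier of neurons and epithelia, was the exception among the glutamate carriers. It had 142, 126, 134 and 183 CPM in uterus, against 95.3, 104, 94.2 and 90.6 CPM in brain, and the lowest uterus library stood above the highest brain library. The difference was small, at 0.60 ± 0.11 (SE, adjusted p = 0.000420), and did not pass the test against a 2-fold change. Part of the gene, 31.9% of its exon length, lies opposite exons of 4430402I18Rik, which averaged 1.05 CPM in uterus and 2.97 CPM in brain. The strand setting of the counting is not given in the sources used here, so reads of the overlap cannot be assigned to one strand. Per length, Slc1a1 supplied 91.8 ± 1.63% of the summed glutamate carrier level in uterus and 3.80 ± 0.331% in brain, and Slc1a2 supplied 0.728 ± 0.157% and 60.4 ± 1.05%. The sum itself was 68.9 ± 8.43 TPM in uterus and 1101 ± 89.8 TPM in brain. Slc1a7, known from retina, was not tested, with 1 count in uterus and 15 counts in brain.

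The monoamine carriers end the action of noradrenaline (Slc6a2), dopamine (Slc6a3) and serotonin (Slc6a4). Slc6a2 was the member of the 3 with high uterine levels. It had 182, 168, 120.1 and 126 CPM in uterus, against 4.08, 3.39, 3.996 and 3.71 CPM in brain, so that the lowest uterus library was far above the highest brain library, and its log2 fold change was 5.30 ± 0.16 (SE, adjusted p = 4.77e-10). Within the uterus, libraries 1 and 2 were higher than libraries 3 and 4. Slc6a4 went the other way: its libraries held 0.101, 0.376, 0.380 and 0.443 CPM in uterus, against 5.37, 6.76, 7.11 and 8.51 CPM in brain, at -4.40 ± 0.33 (SE, adjusted p = 4.05e-07). Slc6a3 had 0 counts in all uterus libraries, against 14.1, 14.7, 14.4 and 13.7 CPM in brain, and was at least 781-fold lower in uterus when 3 counts over the 4 libraries are taken as the limit. Slc6a2 made up 99.7 ± 0.182% of the summed level per length of the 3 carriers in uterus and 9.66 ± 1.02% in brain, where Slc6a3 held 65.9 ± 3.29%.

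The enzymes and other carriers around the monoamines were divided. Of the 8 tested genes of monoamine synthesis and breakdown, 2 were higher in uterus, 5 in brain and 1 did not pass. The 2 higher in uterus break monoamines down: Maob averaged 224 ± 46.2 CPM in uterus and 30.9 ± 1.82 CPM in brain, at 2.85 ± 0.15 (SE, adjusted p = 2.35e-08), and Maoa 111 ± 6.83 CPM in uterus and 56.9 ± 4.97 CPM in brain, at 0.97 ± 0.07. Th, the first enzyme of noradrenaline synthesis, averaged 0.0117 CPM in uterus and 17.1 CPM in brain, and Dbh, the last, 0.353 and 2.31 CPM. Neuron markers were low in all uterus libraries, with summed levels of 3.10, 3.67, 4.16 and 6.27 CPM. Among low-affinity monoamine carriers outside the 6 families, Slc22a3 was higher in uterus (5.82 CPM against 3.03 CPM in brain, log2 0.94 ± 0.19), whereas Slc29a4 was higher in brain (0.767 CPM in uterus, 26.1 CPM in brain). Slc22a2 was also higher in brain.

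The second group of Slc6a members carries GABA, taurine and creatine, and only its taurine and creatine carriers reached 1 CPM in every library of both organs. All 6 were tested, of which 1 was on the uterus side and 5 on the brain side. Slc6a11, the GABA carrier of astrocytes, had 0.0252, 0.0470, 0.127 and 0.233 CPM in uterus, against 335, 344, 345 and 356 CPM in brain. All brain libraries were far above all uterus libraries. The highest uterus value was in library 4, and the log2 fold change was -11.58 ± 0.22, against -12.28 without that library. This shift was larger than the SE, which is too short at so few counts. Uterus library 4 was also the highest of the 4 for Slc6a12 and Slc6a13, and for 3 of the 4 neuron markers, Snap25 (0.227, 0.329, 0.279 and 1.38 CPM in uterus), Syt1 (0.705, 0.423, 0.431 and 1.49 CPM in uterus) and Tubb3 (1.16, 1.25, 1.70 and 2.47 CPM in uterus). The fourth, Rbfox3, was lowest in library 4 (1.01, 1.67, 1.75 and 0.932 CPM in uterus). The part of these markers in the uterine counts was not tested.

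Slc6a13, a GABA and taurine carrier of the meninges, averaged 0.575 ± 0.333 CPM in uterus and 15.3 ± 1.35 CPM in brain, at -4.72 ± 0.29. Slc6a12, a carrier of betaine and GABA, averaged 0.392 ± 0.323 CPM in uterus and 3.18 ± 0.496 CPM in brain, at -3.01 ± 0.48, and at -3.70 without uterus library 4. All 8 enzymes listed for glutamate, glutamine and GABA were higher in brain, led by Gad1, which makes GABA, at 0.213 CPM in uterus and 572 CPM in brain.

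Slc6a6, the taurine carrier, had 279, 219.9, 271 and 286 CPM in uterus, against 187, 174, 174 and 181 CPM in brain. Every uterus library was above every brain library, at a modest 0.56 ± 0.08 (SE, adjusted p = 8.46e-05) that did not pass the test against 2-fold. Slc6a8, the creatine carrier, was lower in uterus: it had 45, 47.3, 56.6 and 37.6 CPM in uterus, against 124, 139, 133 and 135 CPM in brain, at -1.51 ± 0.11 (SE, adjusted p = 3.03e-07). Of the enzymes that belong to these substrates, Csad, which makes a taurine precursor, was higher in uterus (0.80 ± 0.07), and Cdo1, which acts before it, did not pass (0.23 ± 0.12). Gatm, the first enzyme of creatine synthesis, was lower in uterus at -2.42 ± 0.09, and Gamt, the second, was higher in uterus at 0.64 ± 0.14.

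Carriers of glycine, proline and other neutral amino acids form the largest group of the Slc6a family here. Of 8 tested members, 1 was higher in uterus and 7 in brain. The 1 member on the uterus side was Slc6a14, which takes up neutral and cationic amino acids together with sodium and chloride and lies on the X chromosome (chrX:21714896-21742355). Slc6a14 had 7.30, 21.2, 7.81 and 5.73 CPM in uterus, against 0, 0, 0.0231 and 0.0946 CPM in brain. Uterus library 2 held nearly 3 times the level of the next highest uterus library, and the brain libraries held 5 counts in all. The log2 fold change was 8.31 ± 0.77 (SE, adjusted p = 2.20e-06), or 7.72 without uterus library 2 and 9.88 without brain library 4. The uterine gland markers summed to 223, 1191, 378 and 77.7 CPM over 6 genes, with library 2 highest, but the sum was carried by 3 of them. Prss29, a protease of the glands, had 46.4, 559, 123 and 2.28 CPM in uterus, and Prss28 and Spink1 were likewise highest in library 2 and lowest in library 4. The other 3 were highest elsewhere: Foxa2, a gland transcription factor, had 8.96, 12.3, 13.6 and 8.86 CPM, Lif, a cytokine of the glands, had 33.5, 39.9, 53.1 and 33.4 CPM and Cxcl15 had 16.6, 18.9, 25.2 and 27.6 CPM in uterus, and the epithelium markers summed to 530.4, 567, 603 and 642 CPM. The part of the gland markers in the value of Slc6a14 was not tested.

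On the brain side of this group, Slc6a17, which loads neutral amino acids into synaptic vesicles, had 11.4, 10.8, 19.8 and 11.4 CPM in uterus, against 579.7, 657, 683 and 623 CPM in brain, at -5.58 ± 0.21 (SE, adjusted p = 2.06e-09). Uterus library 3 was apart from the other 3 for this gene, and the highest uterus library was still far under the lowest brain library. Slc6a15, a carrier of branched-chain amino acids and proline in neurons, averaged 3.63 ± 1.24 CPM in uterus and 74.3 ± 3.07 CPM in brain, at -4.36 ± 0.21. Slc6a7, the proline carrier of nerve endings, averaged 0.0727 ± 0.0439 CPM in uterus and 90.6 ± 8.45 CPM in brain, at -10.22 ± 0.18. Slc6a5, the glycine carrier of glycinergic neurons, had 2 counts in uterus, both in library 4, against 58.7, 55.7, 67.9 and 55.4 CPM in brain. The ratio of brain over uterus was 4896, with a Poisson 95% interval of 1355 to 40430 that covers counting error only. Slc6a9, the glycine carrier of glia, was in contrast well detected in both organs: it averaged 10.8 ± 1.26 CPM in uterus and 58.02 ± 4.63 CPM in brain, at -2.43 ± 0.10 (SE, adjusted p = 2.95e-09). Its exons lie for 27.8% of their length opposite those of Ccdc24, which averaged 0.760 CPM in uterus and 0.621 CPM in brain.

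Slc6a20a, a carrier of proline and other imino acids, had 2 counts in uterus, both in library 3, against 16.9, 16.2, 22.8 and 15.3 CPM in brain. The ratio of brain over uterus was 1469, with a Poisson 95% interval of 406 to 12140. Brain library 3 was the highest of the 4 and the others lay close together. It shares a stretch of 233 bases at 98.3% identity with its neighbour Slc6a20b, which was too low to be tested, so counts between the 2 are uncertain. Slc6a19, the neutral amino acid carrier of gut and kidney, was low in both organs at 0.0369 CPM in uterus and 0.455 CPM in brain and passed the test toward brain (-3.54 ± 0.51). Slc6a18, its neighbour, had 0 counts in every library.

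The cationic branch of Slc7a brings arginine, lysine and ornithine into cells. Of 5 tested members, 1 was higher in uterus, 3 in brain and 1 did not pass. Slc7a2, an inducible arginine carrier, had 118, 120.2, 147 and 105 CPM in uterus, against 51, 47.3, 49.4 and 49.7 CPM in brain. Every uterus library held more than 2 times the level of any brain library, with a log2 fold change of 1.31 ± 0.09 (SE, adjusted p = 3.10e-07), past the test against 2-fold. Slc7a1, the general arginine carrier, had 57.5, 52.2, 49.8 and 55.7 CPM in uterus, against 64.3, 60.4, 69.2 and 52.6 CPM in brain. Its libraries overlapped between organs, and it did not pass at -0.20 ± 0.09 (SE, adjusted p = 0.0531), with a 95% interval of -0.39 to -0.00. The call for Slc7a1 turned on the setting, since it was higher in brain at -0.24 with RLE scaling and at -0.27 without brain library 4, whereas it was 0.06 and not called when scaled by library size.

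Slc7a3, the cationic carrier of neurons, had 2.17, 2.49, 2.97 and 1.82 CPM in uterus, against 16.5, 13.4, 20.4 and 14.2 CPM in brain, at -2.77 ± 0.19 (SE, adjusted p = 2.01e-07), and brain library 3 was highest. Slc7a4 and Slc7a14, relatives of the cationic carriers, were also higher in brain. Slc7a4 averaged 7.05 ± 0.679 CPM in uterus and 54.2 ± 3.77 CPM in brain, at -2.94 ± 0.09; 13.3% of its exon length lies opposite P2rx6, which averaged 15.7 CPM in uterus and 7.95 CPM in brain. Slc7a14, a lysosomal protein of neurons, had 6 counts in uterus, at 0, 0.0470, 0 and 0.0932 CPM in uterus, against 186, 174, 183 and 189.6 CPM in brain. Its log2 fold change was -12.18 ± 0.21, or -13.19 without uterus library 4. That shift was larger than the SE, which is too short at so few counts. Per length, Slc7a2 made up 71.5 ± 3.31% of the summed level of Slc7a1, Slc7a2 and Slc7a3 in uterus and 36.2 ± 3.05% in brain. In brain Slc7a1 held 35.6 ± 1.80% of the sum and Slc7a3 28.2 ± 2.81%. The sums were 67.5 ± 9.35 TPM in uterus and 53.9 ± 5.77 TPM in brain, which overlap within their spread.

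Of 11 tested enzymes of arginine and creatine metabolism, 7 were called toward uterus and 4 toward brain (median log2 1.01). Past a 2-fold change the split was even, at 4 and 4. Over all tested genes, the calls were 43.5% toward uterus and 43.6% toward brain. The list of 11 is too small to read further. Asl, which releases arginine, had the largest change toward uterus, at 89.8 CPM in uterus and 14.1 CPM in brain (2.67 ± 0.12), and Ass1, the enzyme before it, was lower in uterus (-2.19 ± 0.15). Odc1, which starts polyamine synthesis from ornithine, averaged 135 CPM in uterus and 66.8 CPM in brain (1.01 ± 0.10). Nos3 and Nos2, which make nitric oxide from arginine, were higher in uterus at 1.61 ± 0.12 and 1.56 ± 0.27, whereas Nos1, the neuronal enzyme, was higher in brain at -7.44 ± 0.19. Endothelial markers summed to 694 to 784 CPM in uterus and 85.8 to 96.6 CPM in brain, and their part in these values was not tested.

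The light chains of Slc7a need a heavy chain, whose level differed between organs by less than the spread between libraries. Slc3a2 had 118, 122, 124 and 119.7 CPM in uterus, against 115, 122, 133 and 115 CPM in brain, at -0.01 ± 0.06 with a 95% interval of -0.13 to 0.12. Slc3a1, the heavy chain known from kidney, was low in both, at 0.445 CPM in uterus and 0.414 CPM in brain. Of 6 tested light chains, 2 were higher in uterus, 3 in brain and 1 did not pass.

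Slc7a7, which exchanges cationic for neutral amino acids in epithelia and macrophages, had 18.2, 15.7, 16.8 and 22.3 CPM in uterus, against 2.48, 2.38, 2.63 and 2.67 CPM in brain, at 2.85 ± 0.13 (SE, adjusted p = 9.31e-09). All uterus libraries were far above all brain libraries, and 7.0% of its exon length lies opposite Oxa1l, which averaged 56.9 CPM in uterus and 43.5 CPM in brain. Macrophage markers were of similar size in both organs, with summed levels of 114 to 136 CPM in uterus and 129.5 to 165 CPM in brain, but the 4 genes differed in direction: Adgre1 (2.06 ± 0.14), Aif1 (0.73 ± 0.15) and C1qa (0.60 ± 0.14) were higher in uterus and Csf1r (-1.39 ± 0.08) in brain. Their part in the value of Slc7a7 was not tested. Slc7a6, the relative with the same exchange, had 70.7, 67.1, 69.5 and 68.3 CPM in uterus, against 41.6, 42.5, 39.7 and 41.9 CPM in brain, at 0.73 ± 0.04 (SE, adjusted p = 8.92e-08), and varied least between uteri, with a coefficient of variation of 2.21%.

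Slc7a5 and Slc7a8 both exchange large neutral amino acids such as leucine, and also carry thyroid hormones. Slc7a5, which marks the vessels of the brain as well as growing cells, had 40.95, 45.7, 45.3 and 51.02 CPM in uterus, against 68.8, 71.6, 83.2 and 66.95 CPM in brain, at -0.67 ± 0.09 (SE, adjusted p = 3.48e-05), so the uterus was lower without overlap. Slc7a8 had 67.8, 70.02, 74.7 and 58.5 CPM in uterus, against 60.2, 64.4, 68.2 and 64.1 CPM in brain. Its libraries overlapped and it did not pass at 0.08 ± 0.07, with a 95% interval of -0.09 to 0.25. Slc7a8 was called higher in uterus at 0.16 without uterus library 4 and at 0.34 when scaled by library size, a scaling that moved the median of all genes from 0.01 to 0.27.

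Slc7a10, which carries D-serine and glycine, was nearly restricted to brain. It had 0.0755, 0.212, 0.152 and 0.0699 CPM in uterus, against 30.1, 35.6, 37.1 and 37.5 CPM in brain, at -8.07 ± 0.21 (SE, adjusted p = 1.36e-10). Its exons lie for 17.9% of their length opposite those of Lrp3, which averaged 35.4 CPM in uterus and 85.7 CPM in brain. Slc7a11, which takes up cystine for glutathione synthesis in exchange for glutamate, had 5.11, 6.35, 4.44 and 19.9 CPM in uterus, against 60.1, 59.4, 57.8 and 64.2 CPM in brain. Uterus library 4 held more than 3 times the level of any other uterus library, but remained under every brain library. The log2 fold change was -2.75 ± 0.42 (SE, adjusted p = 0.000135), or -3.49 without uterus library 4. Of the 6 listed genes of glutathione and taurine synthesis, Gclc, Gclm, Gss and Ado were higher in brain, at -0.57 ± 0.06, -0.99 ± 0.08, -0.39 ± 0.08 and -0.48 ± 0.06.

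By share of the summed level per length, the partner set of Slc3a2 in uterus was led by Slc7a6 at 31.98 ± 1.21%, Slc7a8 at 28.7 ± 3.19% and Slc7a5 at 26.1 ± 1.80%. In brain it was led by Slc7a5 at 30.96 ± 2.003%, Slc7a10 at 26.3 ± 1.64% and Slc7a8 at 20.3 ± 0.0674%. The light chains summed to 169.8 ± 10.3 TPM in uterus and 227 ± 10.1 TPM in brain, beside 124 ± 9.43 and 123 ± 6.85 TPM of Slc3a2. Slc7a9, Slc7a12, Slc7a13 and Slc7a15 were too low to be tested in either organ.

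**Figure D2:**
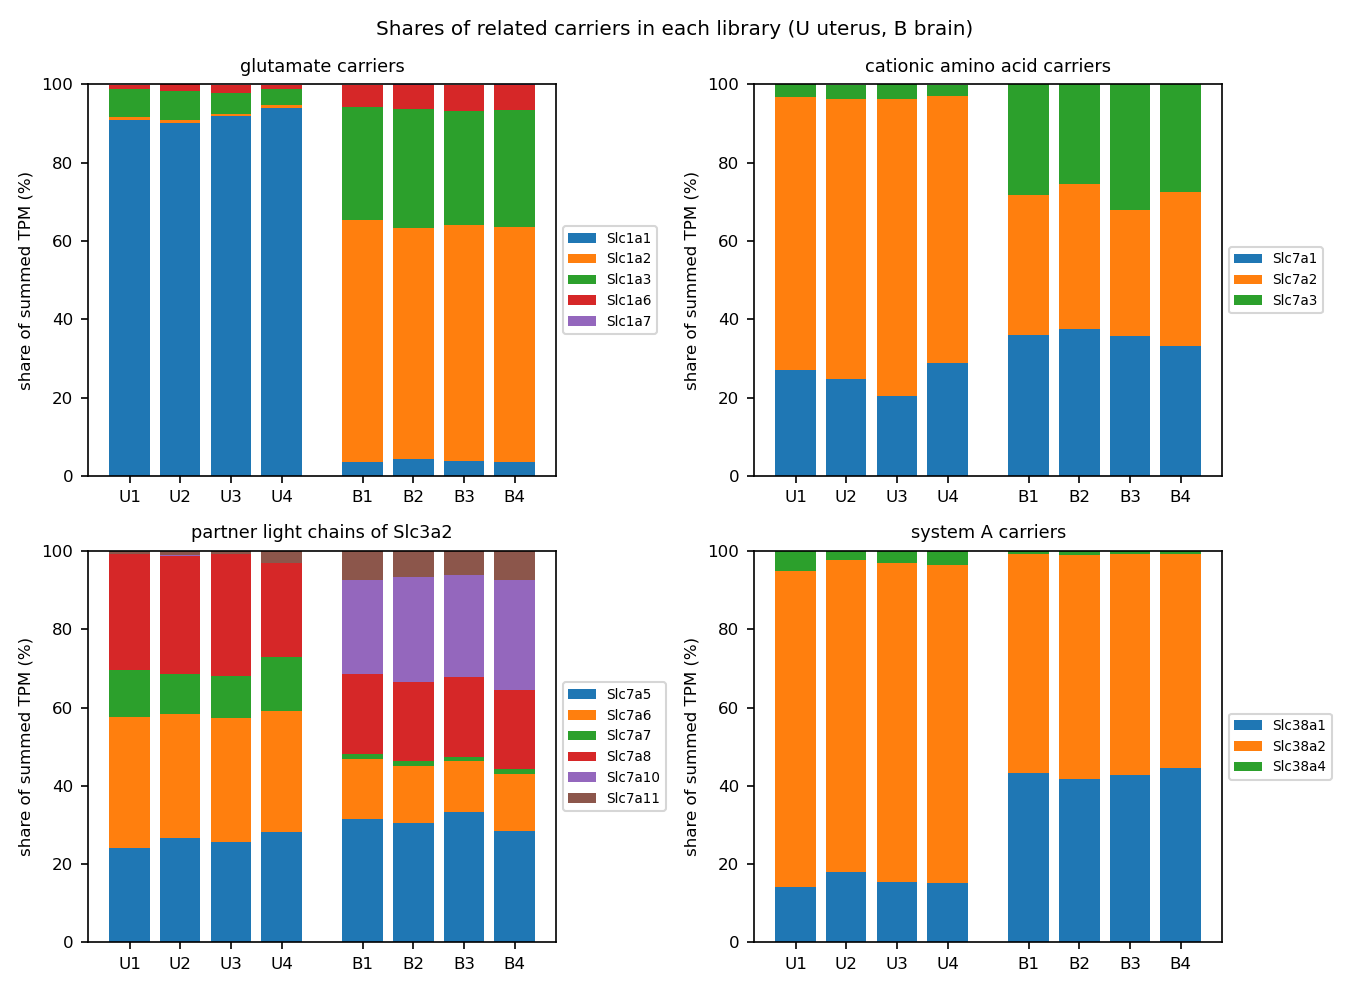
Share of each carrier in the summed TPM of its set, in percent, for each uterus (U) and brain (B) library. Slc1a1 fills most of the glutamate carrier bar in uterus, where Slc1a2 and Slc1a3 fill most of it in brain, and Slc7a10 is visible only in brain.

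The Slc38a carriers of systems A and N handle glutamine and small neutral amino acids. System A (Slc38a1, Slc38a2 and Slc38a4) brings them in with sodium, and system N (Slc38a3 and Slc38a5) moves glutamine and histidine both ways. Of the 5 genes, 1 was on the uterus side, 2 were on the brain side and 2 did not pass. Slc38a2, which cells raise when amino acids run short, was the system A gene at high level in both organs, with 272, 246, 271 and 306 CPM in uterus, against 265, 260.3, 265 and 248 CPM in brain. Its libraries overlapped, and its log2 fold change of 0.07 ± 0.07 (SE, adjusted p = 0.315) had a 95% interval of -0.08 to 0.23. Scaled by library size it was 0.33 and called higher in uterus.

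Slc38a1, which supplies glutamine to neurons, had 93.1, 109, 99.3 and 111 CPM in uterus, against 402, 370.1, 389 and 396 CPM in brain, at -1.92 ± 0.07 (SE, adjusted p = 1.11e-09). Slc38a4 is known from liver and placenta and was higher in uterus: it had 8.18, 3.43, 5.07 and 6.36 CPM in uterus, against 1.73, 2.40, 1.55 and 1.56 CPM in brain, at 1.67 ± 0.27 (SE, adjusted p = 0.000214). Uterus library 1 was highest and library 2 lowest for Slc38a4, and no uterus library reached into the brain range. Slc38a3, which releases glutamine from astrocytes, had 0.327, 0.376, 0.228 and 0.350 CPM in uterus, against 79.3, 84.4, 88.2 and 84.9 CPM in brain, at -8.02 ± 0.10 (SE, adjusted p = 3.33e-12). Slc38a5, the other system N gene, averaged 2.67 ± 0.496 CPM in uterus and 3.73 ± 1.54 CPM in brain, with overlap, and did not pass (-0.48 ± 0.28, adjusted p = 0.131). Per length, Slc38a2 held 80.8 ± 0.854% of the summed system A level in uterus and 56.1 ± 1.11% in brain, where Slc38a1 held 43.1 ± 1.25%. The order in brain turned with the length used, since with the longest transcript Slc38a1 held 55.5% and Slc38a2 44.0% there.

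Differences were small among the other Slc38a members, several of which lie in the lysosome. Of 5 tested, 2 were higher in uterus, 2 in brain and 1, Slc38a11, did not pass. Slc38a6 had 24.5, 27.1, 24.5 and 25.6 CPM in uterus, against 16.7, 16.4, 14.4 and 17 CPM in brain, at 0.66 ± 0.07 (SE, adjusted p = 1.26e-05). Slc38a6 shares stretches of over 98% identity with several other gene models, among them 3240 bases on the opposite strand of Noct, so its counts are uncertain. Slc38a10 had 96.8, 102, 91.3 and 95.6 CPM in uterus, against 75.8, 81.4, 86.7 and 81.7 CPM in brain, at 0.24 ± 0.05 (SE, adjusted p = 0.00171). Slc38a7, a lysosomal glutamine exporter, had 23.6, 25.8, 20.8 and 21.9 CPM in uterus, against 35.7, 33.7, 36.9 and 37.8 CPM in brain, at -0.65 ± 0.08 (SE, adjusted p = 1.76e-05). Slc38a9, the lysosomal arginine sensor of the mTORC1 pathway, averaged 25.6 ± 1.72 CPM in uterus and 39.98 ± 1.75 CPM in brain, at -0.64 ± 0.06 (SE, adjusted p = 4.44e-06). None of these 4 passed the test against 2-fold. Slc38a8 was too low to be tested, as was Slc6a21, a member without a role group here.

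All 3 tested Slc36a carriers, which move small amino acids together with protons, were higher in brain. Slc36a1, found at the lysosome, had 33.1, 34.4, 31.5 and 32.4 CPM in uterus, against 90.1, 103, 106 and 108 CPM in brain, at -1.63 ± 0.07 (SE, adjusted p = 3.06e-09). Slc36a4 had 44.9, 39.7, 40.9 and 44 CPM in uterus, against 101, 99.2, 100.3 and 99.7 CPM in brain, at -1.24 ± 0.05 (SE, adjusted p = 3.89e-09). Both genes separated the organs without overlap. Slc36a2 was low, at 0.381 CPM in uterus and 1.02 CPM in brain (-1.42 ± 0.41), and Slc36a3 was not tested. Among 20 genes through which lysosomal amino acids reach mTORC1, 4 were higher in uterus, 14 in brain and 2 did not pass (median log2 -0.54). Over all tested genes, the calls were 43.5% toward uterus and 43.6% toward brain (median log2 0.01). Many of the changes were small: past 2-fold, 1 was higher in uterus and 6 in brain, beside 23.5% and 25.8% of all tested genes. Rragb had the largest change toward brain, at 3.96 CPM in uterus and 100.3 CPM in brain (-4.66 ± 0.09), and Gatsl3 the largest toward uterus, at 5.95 and 2.47 CPM (1.27 ± 0.18). Mtor averaged 70.2 CPM in uterus and 155 CPM in brain (-1.14 ± 0.04).

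The Slc43a family was the only one of the 6 with more members higher in uterus than in brain, at 2 of 3, a count too small to read further. Slc43a1, which lets large neutral amino acids cross without sodium, had 24.4, 21.9, 21.2 and 18.4 CPM in uterus, against 0.297, 0.553, 0.416 and 0.189 CPM in brain, at 5.86 ± 0.23 (SE, adjusted p = 3.22e-09). Slc43a3, which carries purine bases, had 73.3, 70.1, 61.3 and 68.4 CPM in uterus, against 1.89, 1.29, 1.501 and 1.11 CPM in brain, at 5.57 ± 0.14 (SE, adjusted p = 9.38e-11). Neither gene reached 2 CPM in any brain library. Slc43a2, the closest relative of Slc43a1 and with the same substrates, went the other way and had 22.1, 30.3, 29.6 and 33.5 CPM in uterus, against 88.9, 92.7, 96.2 and 99.98 CPM in brain, at -1.71 ± 0.11 (SE, adjusted p = 1.64e-07). Slc7a6os, the gene beside Slc7a6 that is not a carrier, averaged 44.7 ± 3.75 CPM in uterus and 27.8 ± 1.18 CPM in brain, at 0.68 ± 0.07, a difference like that of Slc7a6.

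**Figure D3:**
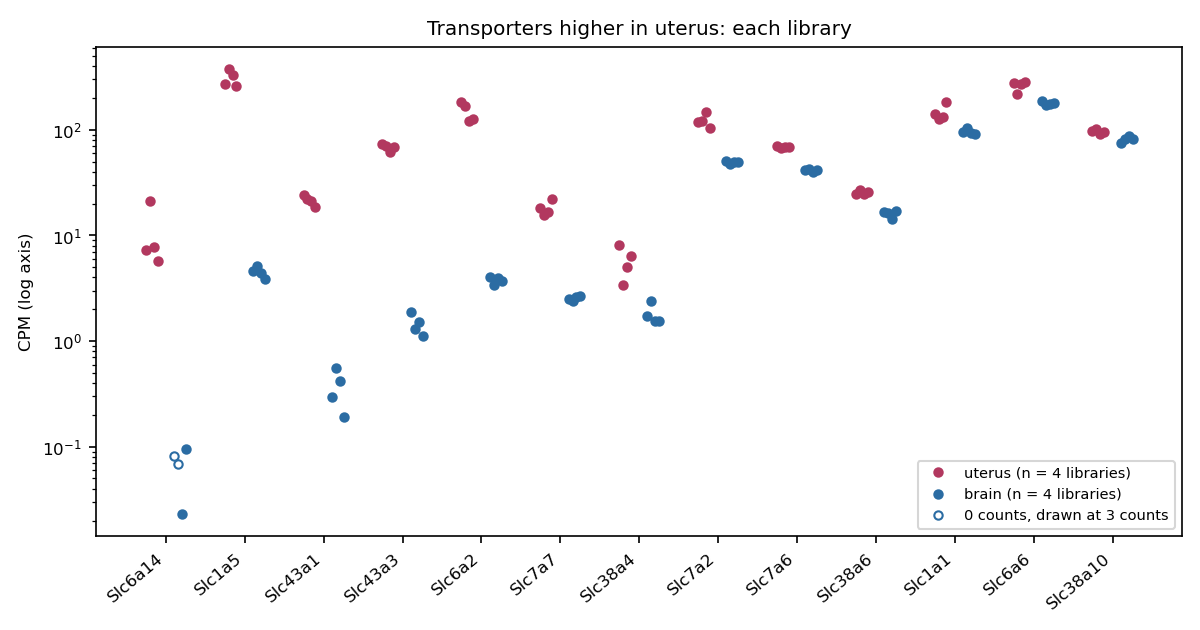
CPM on a log axis of the 13 carriers higher in uterus, in each of 4 uterus libraries and 4 brain libraries; open points are libraries with 0 counts, drawn at the level of 3 counts. The groups of points do not overlap for any of the 13, and Slc6a14 shows 1 uterus library apart at 21.2 CPM.

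Ratios of related genes within a library do not depend on how libraries are scaled, so 14 pairs were compared between organs by the exact permutation test of their log2 ratio, two-sided, with n = 4 libraries per organ. The smallest p that 4 against 4 libraries can give is 0.0286. It was reached by 12 of the 14 pairs, with an adjusted p of 0.0333 in each. Libraries of the organs did not overlap for 84.1% of all tested genes, so most single genes separate the organs too. How many other gene pairs would reach this p was not computed, and the count is not read further. The largest shifts in log2 ratio per length, uterus minus brain, were 9.24 for Slc6a9 over Slc6a5, 7.66 for Slc43a1 over Slc43a2, 7.59 for Slc38a5 over Slc38a3, 7.58 for Slc1a5 over Slc1a4 and 7.30 for Slc43a3 over Slc43a2. The first of these was 7.57 with a pseudocount of 2 in place of 0.5, because Slc6a5 had so few counts in uterus. For Slc1a5 over Slc1a4 the log2 ratio was 3.43 ± 0.29 in uterus and -4.14 ± 0.25 in brain, so a different gene of the pair was the higher one in each organ.

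Other pairs shifted by less. Slc6a6 over Slc6a8 moved by 2.08, with 1.81 ± 0.34 in uterus and -0.27 ± 0.11 in brain. Slc38a2 over Slc38a1 moved by 1.99, Slc7a7 over Slc7a6 by 2.10, and Slc1a3 over Slc1a2 by 4.05. In the other direction, Slc7a1 over Slc7a2 moved by -1.49, Slc7a5 over Slc7a8 by -0.74 and Slc36a1 over Slc36a4 by -0.39. The heavy chains Slc3a2 over Slc3a1 did not pass, at -0.11 (exact permutation p = 0.800).

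**Figure D4:**
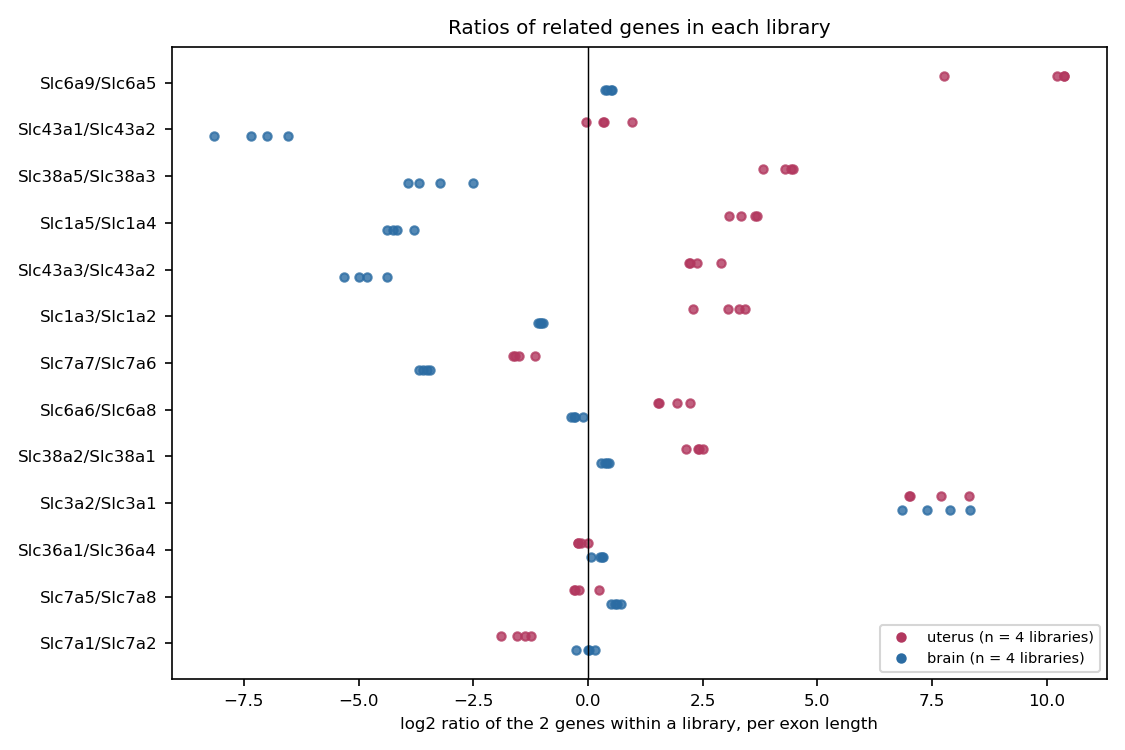
Log2 ratio per exon length of gene pairs within each library (1 of the 14 pairs is not drawn; 4 uterus libraries above, 4 brain libraries below, for each pair). For 12 pairs the 2 sets of points are apart. They lie on opposite sides of 0 for Slc1a5/Slc1a4, Slc1a3/Slc1a2, Slc38a5/Slc38a3, Slc43a3/Slc43a2 and Slc6a6/Slc6a8.

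Members varied more between uteri than between brains. At 5 CPM or more, the median coefficient of variation was 10.0% for 31 members in uterus and 5.05% for 39 members in brain, beside 7.41% and 5.76% for all genes at that level. Of these members, 23 of 31 were above the median of all genes in uterus and 16 of 39 in brain. The most uneven in uterus were Slc7a11 at 82.1%, Slc6a14 at 68.4% and Slc38a4 at 34.9%. In brain they were Slc7a3 at 19.4%, Slc6a20a at 19.01% and Slc6a4 at 18.6%. Different uteri stood out for different genes: library 2 for Slc6a14, library 3 for Slc6a17 and library 4 for Slc7a11. Beside Slc7a11, Bcat1 was singled out after its values were seen. It starts the breakdown of branched-chain amino acids and had 55.9, 66.7, 83.2 and 193 CPM in uterus, so that it too was highest in library 4. Of the 9 amino acid response genes, 1 was highest in that library, Sesn2 (10.9, 13, 11.8 and 14.96 CPM in uterus), whereas Atf4 had 124, 153, 179.5 and 159.9 CPM in uterus and was highest in library 3. Their part in the value of Slc7a11 was not tested.

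**Figure D5:**
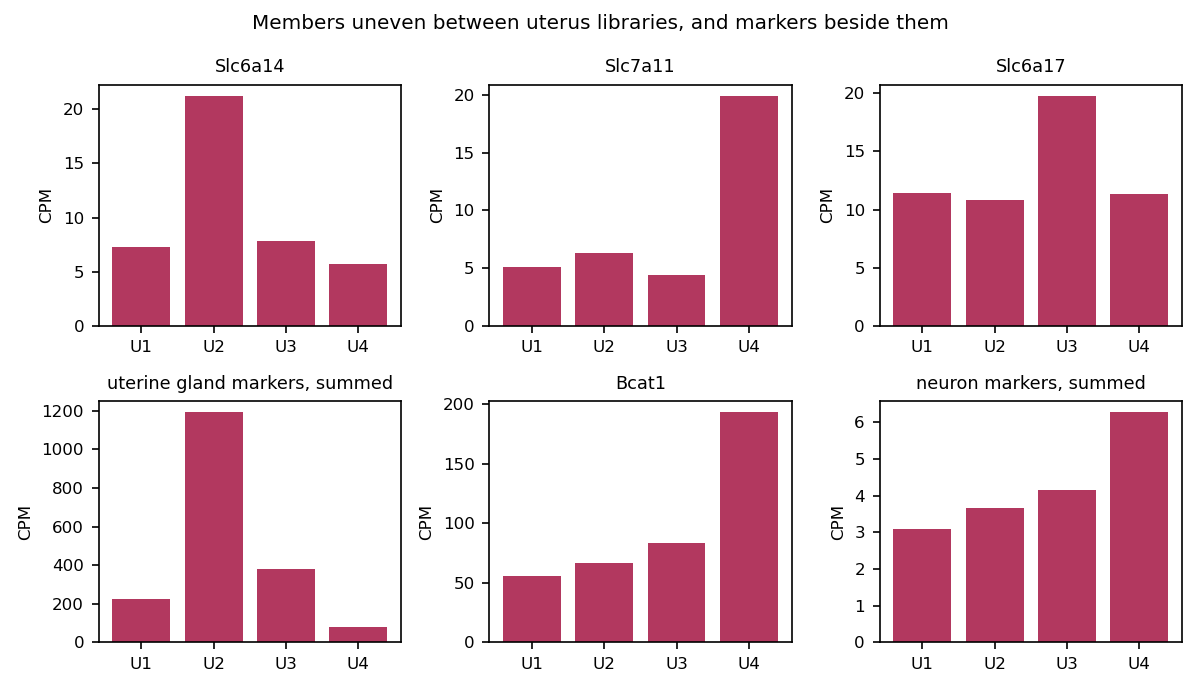
CPM in the 4 uterus libraries (U1 to U4) of 3 uneven members above, and of gland markers (sum of 6 genes), Bcat1 and neuron markers (sum of 4 genes) below. Slc6a14 and the summed gland markers are both highest in U2, but the single gland markers Foxa2, Lif and Cxcl15 were highest elsewhere. Slc7a11, Bcat1, which was picked after its values were seen, and the summed neuron markers are highest in U4.

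Some members lie side by side on a chromosome. Within 250 kb of each other lay 11 neighbouring pairs, which hold 20 of the 61 members. Both genes were called in 5 of these pairs, and in all 5 they were called in the same direction. Of all tested members, 62.75% were higher in brain, and the share of like calls among other neighbouring genes was not computed. The count of 5 is too small to read further. Slc43a1 and Slc43a3, with a gap of 73.0 kb on chromosome 2, were both higher in uterus, and so were Slc7a6 and Slc7a6os on chromosome 8. On chromosome 6, Slc6a13 and Slc6a12 (gap of 5.34 kb) were both higher in brain, as were Slc36a2 and Slc36a1 on chromosome 11. Slc38a1 and Slc38a2, with a gap of 44.5 kb on chromosome 15, parted: the first was higher in brain and the second did not pass.

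Start regions were taken from RefSeq on GRCm38.p6, where 43 members matched with 64 windows. In the 250 bases before the start, the windows with the most CpG per gene had a median of 14 CpG for 23 members detected in both organs, 15.5 for 10 detected in brain only and 4.5 for 8 detected in neither. The 2 members detected in uterus only had 4 (Slc6a14) and 24 (Slc43a1). For 3 genes, the 120 bases that end at the base before the start are shown. Slc7a11 is shown because its uterine level was uneven and its window holds 2 copies of the amino acid response element. Slc38a2 and Slc6a14 are shown as a gene at like levels in both organs and a gene detected in uterus only. Capitals mark the response element in Slc7a11 and each CpG in the other two.
Slc7a11 (chr3:50443614-50443733, minus strand): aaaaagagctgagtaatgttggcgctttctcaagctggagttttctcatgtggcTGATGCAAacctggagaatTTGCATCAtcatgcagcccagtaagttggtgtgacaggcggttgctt
Slc38a2 (chr15:96699729-96699848, minus strand): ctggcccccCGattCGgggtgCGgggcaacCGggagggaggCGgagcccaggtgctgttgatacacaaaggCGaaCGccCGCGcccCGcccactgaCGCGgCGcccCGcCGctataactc
Slc6a14 (chrX:21714780-21714899, plus strand): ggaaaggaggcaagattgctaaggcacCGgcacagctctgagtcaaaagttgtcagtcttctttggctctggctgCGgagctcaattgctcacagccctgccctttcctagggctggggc

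The amino acid response element was searched as TGATGNAA on both strands, and it was in 3.45% of all 32851 windows and in 4 of the 64 member windows (6.25%), which belong to Slc7a11, Slc7a7 and Slc6a21. In Slc7a11 the 2 matches begin 66 and 47 bases before the start, on opposite strands. The cyclic AMP response element, searched as TGACGTCA, was in 1.55% of all windows and in 1 member window, that of Slc38a6. The words are matches of letters only. Of the 250 bases before the start of Slc38a2, 72.0% were G or C with 30 CpG, against 54.0% with 4 CpG in Slc6a14 and 43.2% with 2 CpG in Slc7a11.

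Among the other genes of the pathways, 88 of 89 listed could be tested, with 23 on the uterus side and 52 on the brain side. Over all tested genes, 43.5% were called toward uterus and 43.6% toward brain. The lists were chosen with earlier results of these data known, so the split is not read further. The vesicular carriers, which load transmitters into vesicles, had 6 of 7 higher in brain, led by Slc17a7 for glutamate at 0.210 CPM in uterus and 797 CPM in brain, and 1, Slc18a1, higher in uterus at 1.03 and 0.480 CPM. Of 7 genes that make serine, glycine and asparagine, 2 were higher in uterus, Shmt1 (44.6 CPM against 4.79 CPM in brain, log2 3.22 ± 0.09) and Shmt2 (log2 1.62 ± 0.06), 4 were higher in brain, led by Gldc, which breaks glycine down (log2 -3.03 ± 0.36), and Phgdh did not pass (log2 -0.04 ± 0.08). Of 7 genes that break down branched-chain amino acids and tryptophan, 2 were higher in uterus, led by Tdo2 (log2 1.74 ± 0.26), 2 in brain, led by Ido2 (log2 -2.65 ± 0.26), and 3 did not pass. The amino acid response genes were split evenly, with 3 higher in uterus, 3 higher in brain and 3 that did not pass. Atf3 had 9.15 CPM in uterus and 0.990 CPM in brain (log2 3.21 ± 0.31), whereas Chac1 had 0.752 and 6.87 CPM (log2 -3.18 ± 0.35).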

How the data were processed

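The deposited table holds raw counts per gene for 4 uterus and 4 brain libraries, with no normalization. Per the submitters' processing notes, reads were handled with FastQC, HISAT2 2.0.3, featureCounts and edgeR on GRCm38.p5, and per the labels the kit was a stranded one with ribosomal depletion. The strand setting, annotation release and treatment of multiply mapped reads were not given in the sources used here. Members and gene lists were chosen with earlier results of these data known.

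Counts were fitted over the whole table with the edgeR quasi-likelihood test (edgeR 4.0.16, R 4.3.3; TMM, filterByExpr by organ, Benjamini-Hochberg over 16074 genes, threshold 0.05), and with glmTreat against 2-fold. SE is the unshrunken log2 fold change over the square root of F. It can be too short for genes with few counts in an organ, such as Slc6a7, Slc6a11, Slc7a10, Slc7a14 and Slc38a3 in uterus. TPM used exon-union lengths of GENCODE M21, in which all 61 members were found. Pair ratios used a pseudocount of 0.5. Near-identical copies were sought with BLAST+ 2.17.0 (98% identity over 150 bases). Replicates are separate mice, and reads carried no molecular identifiers. Poisson intervals, and limits for genes without counts in an organ, cover counting error only. Intervals of fitted log2 fold changes come from the quasi-likelihood fit and include the spread between libraries. They rest on the same SE and share its limit at few counts. Genes were named by role group: the largest called change each way at 5 CPM or more, the highest level per length, uncalled members at 10 CPM or more, members with changing calls and the 3 most uneven per organ; from each pathway list, the largest called change each way at 1 CPM or more. The values of 1 member and 2 pathway genes are not reported here.

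Alternatives were other scalings (RLE, upper quartile, library size), other filters, DESeq2 1.42.0, limma-voom (limma 3.58.1), a threshold of 0.01, a replicate block, other detection limits, and each library left out.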

Additional observations from a re-analysis of the deposited data

Results flagged for a closer look

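In 70 groups of 4 libraries (a member at 5 CPM or more in an organ), the lowest or highest library was examined for its distance from the rest with Dixon's ratio, which chance alone exceeds in about 1 of 20 groups. Such libraries are described for 3 genes, a number near what that rate gives in 70 groups. Slc6a14 was 21.2 CPM in uterus library 2, where the other uterus libraries held 5.73 to 7.81 CPM. Slc6a17 was 19.8 CPM in uterus library 3, where the others held 10.8 to 11.4 CPM. Slc7a11 was 19.9 CPM in uterus library 4, where the others held 4.44 to 6.35 CPM.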

How the results depend on the processing

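Under each of the 17 alternative fits, no member changed direction among those called. Members higher in uterus numbered 14 to 16 and those higher in brain 30 to 35, and past 2-fold, where that test was run, 8 and 27 to 31. Leaving out 1 library at a time gave 14 to 15 members higher in uterus and 32 to 33 higher in brain. With the replicate block the counts were 14 and 32, as without it. Deviations of same-numbered libraries correlated at -0.05, 0.00, 0.08 and 0.07, and those of differently numbered libraries at -0.08 to 0.10. Such correlations between unlike organs cannot decide whether the numbers pair animals. The labels do not say, so the main fit held no block. Calls changed for 3 members: Slc38a2 (0.33 with upper-quartile scaling, 0.33 with library size), Slc7a8 (0.33 and 0.34, and 0.16 without uterus library 4) and Slc7a1 (-0.24 with RLE scaling and with DESeq2, -0.27 without brain library 4). The call of Slc38a2 changed only with upper-quartile and library-size scaling, where the median of all genes was 0.27, against 0.01 with TMM. The call of Slc7a8 changed with these scalings and also without uterus library 4, where that median was 0.01. Pathway genes higher in uterus numbered 18 to 32 and those higher in brain 47 to 54. Gene pairs that differed numbered 10 to 12 of 14 when 1 library was left out. Detection at 0.5 or 2 CPM gave 36 or 32 members in uterus and 48 or 45 in brain. Low counts limit the carriers near 0 in uterus, whose log2 fold changes moved most: Slc6a5 was -14.25 and Slc6a20a -12.53 without the uterus library that held their counts, values that rest on 0 uterine counts and so depend on the prior count.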

Other observations

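Several carriers that are known targets of Atf4, the transcription factor of the amino acid response, were highest in the same brain library, a pattern noticed after the values were seen. Slc7a5 had 68.8, 71.6, 83.2 and 66.95 CPM in brain, Slc7a1 64.3, 60.4, 69.2 and 52.6 CPM, Slc1a4 77.96, 67.9, 87.6 and 69.7 CPM and Slc7a3 16.5, 13.4, 20.4 and 14.2 CPM, with library 3 highest for all 4 genes. Brain library 3 was also highest for carriers not chosen here as targets. Among them were Slc6a17 (579.7, 657, 683 and 623 CPM), Slc6a5 (58.7, 55.7, 67.9 and 55.4 CPM) and Slc6a20a. Other carriers peaked elsewhere, such as Slc1a2 in library 1. A peak in library 3 was thus not particular to the targets. Atf4 itself had 150.1, 116, 165 and 111 CPM in brain, Sesn2 18.5, 13.4, 20.8 and 15.5 CPM and Chac1 8.85, 5.51, 8.59 and 4.54 CPM, with libraries 1 and 3 the 2 highest for each. The same held for Trib3 and Cebpb, and so for 5 of the 9 amino acid response genes, but not for Eif2ak4, Ddit3, Atf3 and Ddit4. Slc7a11, also a target, had 60.1, 59.4, 57.8 and 64.2 CPM and was lowest in library 3. Slc38a2, which cells raise when amino acids run short, had 265.3, 260.3, 264.6 and 248.2 CPM in brain and was highest in library 1. Slc1a5 had 4.64, 5.17, 4.46 and 3.90 CPM in brain and was highest in library 2. Red cell markers were lowest in libraries 1 and 3, with summed levels of 77.7, 263, 137 and 251 CPM in brain, and their part in these values was not tested. In uterus, Slc6a2 was highest in libraries 1 and 2, whereas Slc1a5 was highest in libraries 2 and 3, so these 2 carriers did not follow 1 order of animals.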
